A study of Mus musculus with 33 samples.

Results

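The integrins and adhesion molecules described here are 33 mouse genes, listed by name, out of 32285 genes counted in every cell. They comprise 11 integrin alpha subunits (Itga1, Itga2, Itga4, Itga5, Itga6, Itga9, Itgae, Itgal, Itgam, Itgav and Itgax), 5 beta subunits (Itgb1, Itgb2, Itgb3, Itgb5 and Itgb7), 4 immunoglobulin-family ligands of integrins (Icam1, Icam2, Vcam1 and Madcam1), 5 selectins and selectin ligands (Sele, Selp, Selplg, Cd34 and Cd44), 7 junctional molecules (Alcam, Cdh1, Cdh5, Esam, F11r, Jaml and Pecam1) and the integrin-associated protein Cd47. The study tagged the neighbours of injected tumour cells with biotin (the SAMENT method, whose tumour-borne enzyme marks the cells around it) and sorted single cells of mouse tissues into biotin-positive and biotin-negative fractions. In the intracardiac experiment, tumour cells were injected into the heart circulation and bone, brain, liver and lung were each taken as 4 positive and 4 negative samples. In the second experiment, injections named IIA gave bone cells only, a positive and a negative sample for each of 6 injections, all tagged with hashtags and pooled into 1 matrix. Hashtags were matched to injections and fractions by their number, since their names differ between the deposited list and the matrix. All groups therefore carried the label-bearing tumour cells and the labelling substrate, and a negative sample holds the cells of an injected mouse that were not tagged. The labels give no mouse strain, age, genotype or tumour line, and no uninjected tissue was compared here.

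Integrins are pairs of an alpha and a beta chain that bind matrix or ligands on other cells, and their partner chains decide what they bind: the Itgb2 chain pairs with Itgal, Itgam or Itgax on leukocytes, while Itga4 pairs with Itgb1 or Itgb7 and binds Vcam1 or Madcam1. Selectins on vessel walls and platelets catch rolling leukocytes through Selplg, and Cdh5, Pecam1, Esam and F11r hold endothelial and epithelial contacts that leukocytes cross. Cd47 sits beside integrins in the membrane and is also the ligand that tells phagocytes to spare a cell.

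The neighbouring genes Itgam and Itgax, both on the forward strand of chromosome 7 with start sites 66907 bases apart, showed opposite levels in alveolar macrophages, so the 250 bases before the start of each are shown from RefSeq (GRCm38.p6), at chr7:128062390-128062639 for Itgam and chr7:128129300-128129549 for Itgax. Of the 33 members, 21 had a promoter in the table used. Capitals mark GAGGAA or its reverse complement TTCCTC, the letters of the purine-rich box known from PU.1 binding. Of 32851 promoters of this length 23.3% hold either, Itgam holds 2 matches, and in this window Itgax holds none. Another motif looked for, TGACTCA or its reverse complement TGAGTCA, is held by 4.46% of these promoters and is not marked. Itgax holds it as TGAGTCA, and Itgam does not hold it.
Itgam: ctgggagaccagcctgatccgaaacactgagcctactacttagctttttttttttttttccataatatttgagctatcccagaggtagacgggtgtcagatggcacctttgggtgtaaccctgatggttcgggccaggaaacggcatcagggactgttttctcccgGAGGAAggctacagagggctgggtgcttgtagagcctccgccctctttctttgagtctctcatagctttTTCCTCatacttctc
Itgax: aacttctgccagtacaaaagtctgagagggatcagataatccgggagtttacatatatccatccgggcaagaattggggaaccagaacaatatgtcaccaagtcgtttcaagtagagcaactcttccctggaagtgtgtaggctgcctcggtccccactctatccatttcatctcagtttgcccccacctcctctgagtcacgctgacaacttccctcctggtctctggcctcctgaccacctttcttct

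A total of 55366 intracardiac cells (94 to 3505 per sample, with median depths of 2606 to 11313.5 UMIs per cell) and 22362 IIA cells (249 to 3480 per sample, 2532 to 10766 UMIs) were kept. Cells fell into 38 intracardiac and 28 IIA clusters. Most were named from marker genes that include none of the 33 members, and the members were also left out of the clustering. Clusters without a clear marker list stayed unnamed and count in no class, only among all kept cells. They held medians of 13.6% of positive lung and 18.2% of positive IIA cells. An intracardiac one of 1717 cells was led by Arg1, Pf4 and Spp1. Class names such as neutrophil or macrophage stand for neutrophil-like or macrophage-like clusters, since no deposited annotation was used. Levels are in CPM, the UMIs of a gene scaled to a common total of all UMIs, summed over the cells of a class in 1 sample; a 0 means that no UMI was seen in those cells. The experiments used different library chemistries, 3′ and 5′, so their levels are not compared, and a CPM is not corrected for gene length, so it is compared between classes and not between genes. The 112 pairs of intracardiac samples with the same replicate number shared 0 cell barcodes, and the 384 pairs with different numbers shared 341. The labels do not say whether numbered samples came from separate mice, so p-values measure the spread between these samples. The counts were not corrected for free RNA, and how much of a low level in a class comes from it was not tested. As a reference, S100a8, an abundant neutrophil gene that monocytes can also express, had a median of 140405 CPM in intracardiac neutrophils, 7075 in B cells, 1027 in NK cells and 35790 in nonclassical monocytes.

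Across the intracardiac classes the summed level of all members was highest in endothelial cells, with a median of 7452 CPM (4749 to 9191 in 12 samples), and lowest in plasma cells, with a median of 700 CPM in 8 samples. Alveolar macrophages had 4683, nonclassical monocytes 4470 and microglia 4012 CPM. Macrophages spread most, from 2253 to 16074 CPM around a median of 3445 in 23 samples. Neutrophils stood at 2523 CPM and B cells at 1490. These class levels, drawn for each member in the heat map by class, are descriptions without a test.

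**Figure D1:**
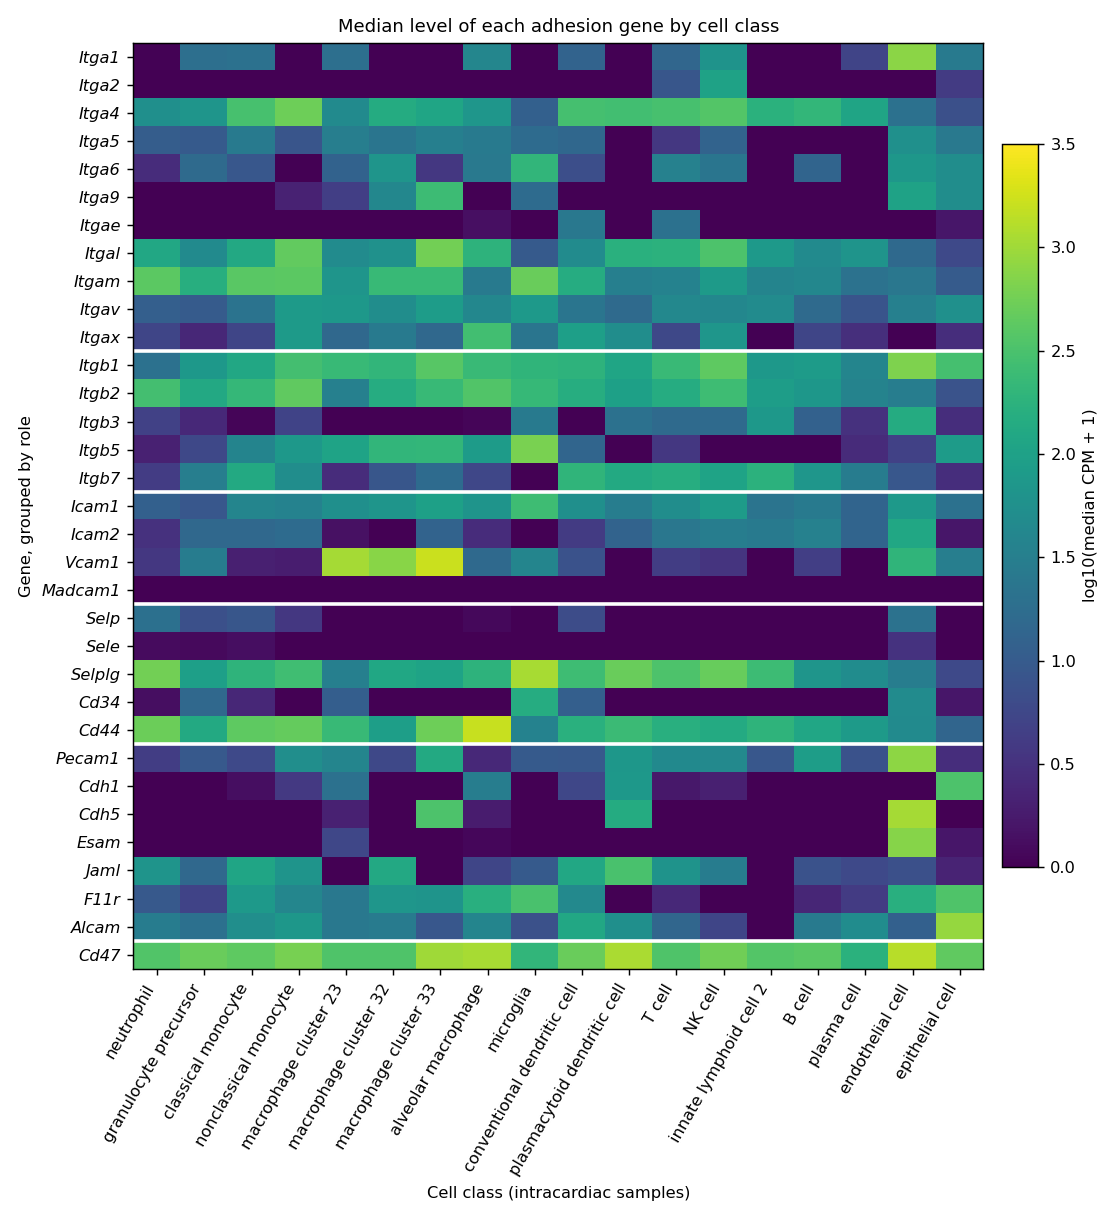
Median level of each member in each intracardiac cell class, as log10(CPM + 1) over samples, with members in rows ordered by role and classes in columns; macrophages are split into cluster 23 (mostly bone), 32 (brain) and 33 (liver). Cdh5, Esam, Pecam1 and Itga1 stand out in endothelial cells, Itgax and Cd44 in alveolar macrophages, Selplg and Itgb5 in microglia, and Madcam1 is at 0 in every class.

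Among the alpha subunits, Itgam, the CD11b chain of myeloid cells, had a median of 495 CPM in microglia (327 to 783), 419 in neutrophils (259 to 624), 414 in nonclassical and 404 in classical monocytes. Alveolar macrophages held only 26.6 CPM of Itgam (3.37 to 73.7), below the range of the neutrophils. They instead had the highest median of Itgax, the CD11c chain, with 279 CPM (162 to 343), followed by conventional dendritic cells with 93.6 (45.9 to 158) and nonclassical monocytes with 80.6 (6.07 to 399.6), and these last ranges overlap. Neutrophils had 4.32 CPM of Itgax (0 to 19). In B cells Itgam measured 41.0 CPM, and the part of free RNA in that level was not tested.

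Itgal, the LFA-1 chain of lymphocytes and monocytes, was highest in nonclassical monocytes with a median of 454 CPM (226 to 961), then in NK cells with 327 (180 to 543), and these ranges overlap. Itga4 followed the same first places, with 530 CPM in nonclassical monocytes (268 to 1043), 369.8 in NK cells (0 to 868), 302.98 in T cells and 300.6 in classical monocytes. Itga2, a collagen-binding chain used to mark NK cells, had a median of 103 CPM in NK cells (0 to 194) and 7.76 in T cells. Itga1, the other collagen-binding chain of the list, was high in endothelial cells (776 CPM, 315 to 1520) and reached 61.9 in NK cells (4.24 to 372). Itgae, which with Itgb7 binds E-cadherin, was seen at 23.9 CPM in conventional dendritic cells (0 to 194) and at 18.9 in T cells (0 to 44.9).

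The laminin-binding chain Itga6 was highest in microglia with a median of 198 CPM (150 to 505) and in endothelial cells with 69.3 (16.5 to 764). Itga9 was found in endothelial cells (101 CPM, 0 to 396) and macrophages (66.4, 0 to 330). Itga5, the fibronectin receptor chain, stayed at or under 55.4 CPM in median, its level in endothelial cells, and Itgav ranged from 7.24 in plasma cells to 80.7 in nonclassical monocytes.

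Among the beta subunits, Itgb2, the leukocyte chain, had medians of 435 CPM in nonclassical monocytes (355 to 604), 354 in alveolar macrophages (322 to 404) and 280 in neutrophils (214 to 413). Itgb1, which pairs with many alpha chains, was highest in endothelial cells at 670 CPM (282 to 891) and lowest in neutrophils at 19.0. Itgb5 was highest in microglia at 633 CPM (539 to 843), whose range lies wholly above that of macrophages (31.2 to 282, median 181). Itgb7 had 194 CPM in conventional dendritic cells (52.4 to 316), 179 in type 2 innate lymphoid cells (148 to 260.1) and 152 in T cells (61.8 to 298). Itgb3, known from platelets, reached 140 CPM in endothelial cells (0 to 289) and 71.5 in type 2 innate lymphoid cells (54.2 to 112).

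Of the immunoglobulin-family ligands, Vcam1 was a macrophage and endothelial gene in these tissues, with 700 CPM in macrophages (138 to 13057 over 23 samples) and 195 in endothelial cells (49.8 to 549). Icam1, a ligand of Itgal and Itgam, was highest in microglia with 260 CPM (200.1 to 297), and Icam2 in endothelial cells with 119 (67.4 to 434). Madcam1, the gut and lymphoid-tissue ligand of Itga4 with Itgb7, had a median of 0 in every class of both experiments.

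Selplg, the ligand that selectins bind on leukocytes, was highest in microglia with 1103 CPM (1001 to 1363), above every neutrophil sample (211 to 971, median 576). Cd44, a hyaluronan receptor, ran the other way: alveolar macrophages had 1614 CPM (1449 to 1817), neutrophils 514 (217 to 801) and microglia 34.8 (15.8 to 56.4), with no overlap between these 3 classes. Cd34, known from progenitors and vessels, had 148 CPM in microglia (86.6 to 322) and 47.4 in endothelial cells (10.4 to 431). Sele, the inducible endothelial selectin, was near 0 outside endothelial cells, where its median was 2.27 CPM (0 to 81.2). Selp, the selectin stored in endothelial cells and platelets, stood at 19.9 CPM in endothelial cells (0 to 198) and at 18.6 in neutrophils (4.86 to 58.1).

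Of the junctional molecules, Cdh5, the cadherin of endothelial contacts, had 1077 CPM in endothelial cells (465 to 1891), and plasmacytoid dendritic cells had 143 (79.3 to 221). Esam was seen at 732 CPM in endothelial cells (422 to 1355) and had a median under 1 in every other class. Pecam1 had 811 CPM there (575 to 1576) and 87.5 in B cells. Jaml, a leukocyte junction molecule, was highest in plasmacytoid dendritic cells (314 CPM, 159 to 361), which also had more Cdh1 (73.6 CPM, 47.6 to 150) than alveolar macrophages (29.7, 22.2 to 40.4). The single sample with enough epithelial cells, a biotin-positive liver sample, had 330 CPM of Cdh1, 892 of Alcam and 341 of F11r. F11r was next highest in microglia at 313 CPM (225 to 396). Cd47 was highest in endothelial cells (1317 CPM, 360 to 1765) and lowest in plasma cells (169).

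Endothelial cells came as separate clusters with different members. A cluster led by Ly6c1 and Cldn5 had 230 CPM of Cd34, 371 of Itga6 and 0 of Itgb3. The other, led by Clec4g and Gpr182, genes of liver sinusoids, had 19.2 of Cd34, 29.5 of Itga6 and 254 of Itgb3, and also 143 of Selp and 229 of Itga9, against 0 and 4.9 in the first. Cd47 stood at 391 CPM in the first and at 1558 in the second. These are medians over samples, without a test.

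Resident macrophages of the 4 tissues differed most. These are the alveolar macrophages, microglia and macrophages combined, and they were compared between tissues in the biotin-positive samples of bone (4), brain (4), liver (3) and lung (4); liver replicate 4 had too few such cells. Of 26 members tested, 21 differed between tissues (edgeR quasi-likelihood F test, Benjamini-Hochberg adjusted p under 0.05), beside 35.4% of all 8909 genes. By role these were 7 of 9 alpha subunits, 3 of 4 beta subunits, 1 of 3 immunoglobulin-family ligands, 3 of 3 selectins and selectin ligands, 6 of 6 junctional molecules and Cd47. Icam2 passed as well with the replicate number as a block.

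Cdh5, the endothelial cadherin, was high in liver macrophages alone, at 60.1, 449.6 and 254 CPM. Lung had 0.8, 2.54, 0.979 and 0 CPM, brain 0, 3.84, 0 and 0.979, and bone 1.6, 5.63, 0 and 0. All liver samples lay above all others (log2 range between tissues 7.34, adjusted p = 1.61e-08). The 15 endothelial marker genes summed to 39.3 to 57.5 CPM in liver, 37.7 to 65.0 in bone, 43.0 to 105 in brain and 102 to 176 in lung. Their part in the Cdh5 values was not tested.

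Vcam1, the ligand of Itga4, was highest in bone macrophages at 3733, 12455, 2194 and 3321 CPM. Liver had 999, 1656 and 536 CPM, brain 920.2, 695, 148 and 146, and lung 10.3, 31, 16.6 and 100.4. Bone lay above every other sample and lung below, while brain and liver overlapped (range 6.95, adjusted p = 8.95e-06). Itga9 had 66, 327 and 185 CPM in liver and 73.5, 99.8, 16.3 and 0 in bone, then 37.7, 21.1, 15 and 21 in brain and 0.64, 3.7, 1.96 and 7.17 in lung (range 6.17, adjusted p = 3.42e-07). Lung was low and bone varied widely.

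Cd34 was highest in brain, at 51.2, 5.37, 103 and 92.5 CPM, against 6.39, 10.5, 0 and 0 in bone, 21.7, 0.837 and 9.08 in liver and 1.92, 0.212, 0 and 0 in lung (range 6.12, adjusted p = 8.93e-05). Brain replicate 2 lay among the samples of the other tissues. Cd44, the hyaluronan receptor, was high in lung at 1775, 1761, 1596 and 1429 CPM and low in brain at 25.6, 71, 63.8 and 17.1, with 353, 388, 260.0 and 113 in bone and 419, 779 and 735 in liver (range 5.18, adjusted p = 2.48e-06). These 4 tissues did not overlap for Cd44. Itgal, the LFA-1 chain, had 131, 817 and 478 CPM in liver, 177, 182, 205 and 147 in lung, 70.3, 58.7, 48.8 and 0 in bone and 20.2, 23, 16.9 and 3.43 in brain (range 4.88, adjusted p = 3.99e-06).

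The further 15 members that differed had smaller ranges. Highest in lung were Itgax, Itga1, Itgb2, Cdh1, F11r, Alcam and Cd47, with Itgax at 273, 275, 324 and 243 CPM. Highest in brain were Itgam, Itga6, Itgb5, Jaml and Selplg, with Itgam at 186, 199, 319 and 293 CPM in brain and 22.9, 20, 38.2 and 17.4 in lung. Pecam1 and Itgb1 were highest in liver and Itgav in bone. The 5 tested members that did not pass were Icam1, Icam2, Itga4, Itga5 and Itgb7.

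**Figure D2:**
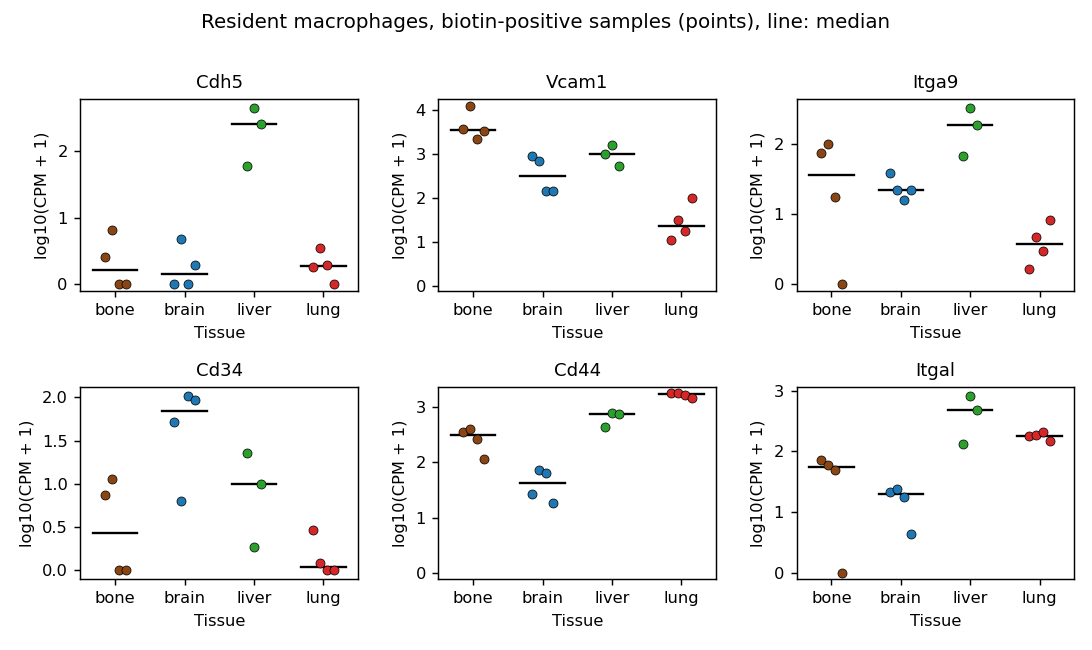
Level of Cdh5, Vcam1, Itga9, Cd34, Cd44 and Itgal in resident macrophages of each biotin-positive sample, by tissue, as log10(CPM + 1). Each point is a sample and each line a median. Liver stands apart for Cdh5, bone for Vcam1 and lung for Cd44.

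These tissues held different macrophage clusters. The positive cells were 91.3% of a cluster led by Vcam1, Ccr3, Itgad and Spic in bone, 65.8% of a cluster led by Ccl12, Ptgds and Lyve1 with 32.2% microglia in brain, 87.0% of a cluster led by Cd5l and Clec4f in liver, and 93.0% of the main alveolar macrophage cluster in lung. The cells of the bone cluster had a median depth of 0.276 of their samples' own. Bone macrophages also carried 493.3 to 33810 CPM of the erythroid marker list and liver ones 33.3 to 13954, against at most 57.6 in brain and lung, and lung ones carried 238 to 723 CPM of the epithelial list, beside 11.6 to 333 in liver and at most 58.7 in bone and brain. The megakaryocyte and platelet list summed to 219 to 1950 CPM in brain, 357 to 748 in liver, 16.2 to 398 in bone and 36.3 to 63.5 in lung, and the neutrophil list to 6641 to 74509 in bone and 2773 to 26723 over the other tissues. The part of these in the differences was not tested. With the microglia and alveolar clusters left out, 8 of 24 members differed (11% of 7121 genes): Cd44, Vcam1, Itgal, Cdh5, Jaml, Itga9, Pecam1 and Itga1.

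Partner genes of adhesion in the same comparison were taken from lists of related genes. Of the tested genes, 1 of 3 other integrin subunits, 11 of 24 genes of integrin activation and linkage, 6 of 8 of selectin and ligand synthesis, 9 of 12 of junction and transmigration and 5 of 10 other ligands differed. The widest ranges were those of Tnc, a matrix ligand of Itga9, at 8.50 and of Itgad at 8.08, both highest in bone and lowest in brain. Vtn, the ligand of Itgav integrins, had 7.50, highest in brain and lowest in bone, and Tln2, a talin that couples integrins to actin, 6.44, highest in brain and lowest in lung.

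Neutrophils, present in all 32 intracardiac samples, were compared between the tissues in the biotin-negative samples, and 13 of 22 members differed, beside 27.1% of 7688 genes. By role these were 5 of 7 alpha subunits, 2 of 4 beta subunits, 1 of 3 immunoglobulin-family ligands, 2 of 3 selectins and selectin ligands, 2 of 4 junctional molecules and Cd47. Leaving out bone negative replicate 4 or lung negative replicate 4 gave 8, and with the replicate number as a block F11r, Itgb7 and Selp passed as well.

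Icam1 measured 48.7, 60.3, 16.9 and 11.3 CPM in lung neutrophils, 12.3, 43.5, 14.6 and 16.7 in liver, 2.08, 16, 16.7 and 4.18 in brain and 3.06, 6.12, 1.79 and 0.988 in bone (range 3.42, adjusted p = 0.00144). All bone samples lay below all liver and lung samples. Itga5, the fibronectin receptor chain, measured 20.8, 14.5, 5.63 and 19.3 CPM in lung, 5.63, 17.8, 9.73 and 13.8 in liver, 0.347, 11, 9.37 and 1.87 in brain and 1.91, 2.72, 1.91 and 1.09 in bone (range 2.91, adjusted p = 0.000479). Its lowest liver and lung values were still above bone. Itgb3 ran in the opposite direction, with 1.49, 1.75, 0 and 0.893 CPM in lung, 7.95, 0.209, 1.22 and 3.46 in liver, 13.9, 2.1, 1.04 and 7.1 in brain and 16.1, 4.76, 5.38 and 7.07 in bone (range 2.73, adjusted p = 0.0198).

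Itga4, the Vcam1 receptor chain, measured 102, 87.2, 81.6 and 115 CPM in lung, 52.7, 62, 55.9 and 72.3 in liver, 25.7, 48.9, 33.3 and 41.5 in brain and 27.2, 19.3, 23.5 and 33.8 in bone (range 1.71, adjusted p = 5.39e-05). Only bone and brain overlapped for Itga4. Jaml, the leukocyte junction molecule, had 124, 88.8, 47.8 and 133 CPM in lung, 82.5, 64.5, 53.5 and 60.1 in liver, 40.6, 47.3, 35.4 and 41.1 in brain and 64.7, 13.2, 10.5 and 33.4 in bone (range 1.64, adjusted p = 0.00589). Itgax stayed low, at 0.676 to 3.79 CPM in bone, 1.04 to 6.3 in brain, 2.43 to 10.9 in liver and 4.82 to 11.3 in lung (range 1.78, adjusted p = 0.0265). Cd44, Selplg, Alcam and Itgal were also highest in lung, with ranges of 1.28, 1.14, 0.90 and 0.64. Cd47, Itgam and Itgb2 were highest in bone, with ranges of 0.73, 0.61 and 0.58.

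**Figure D3:**
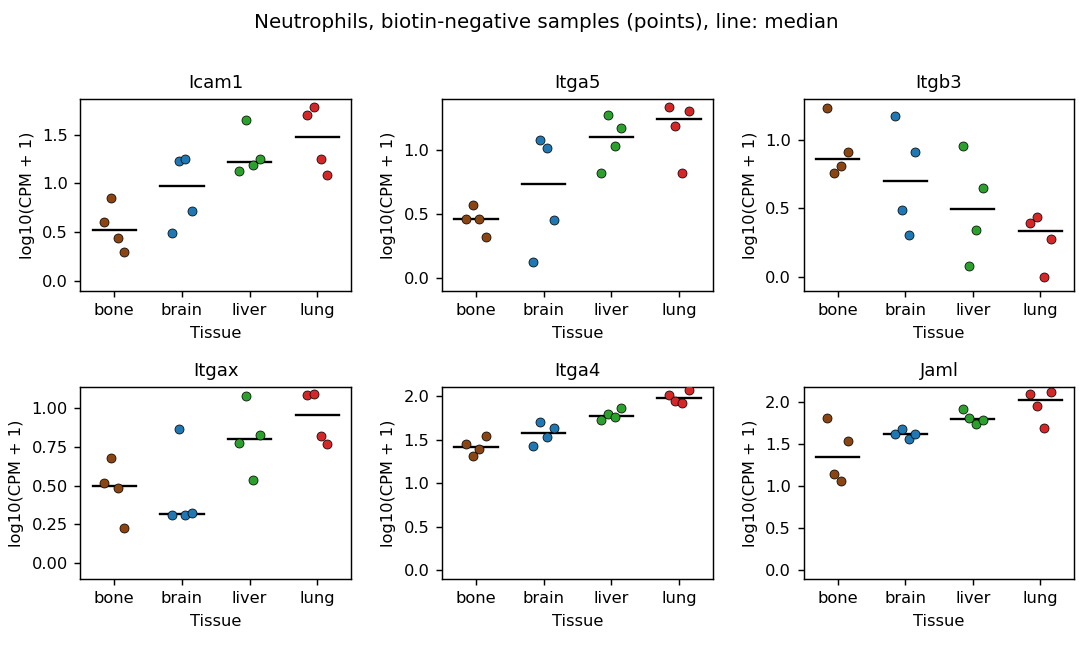
Level of Icam1, Itga5, Itgb3, Itgax, Itga4 and Jaml in neutrophils of each biotin-negative sample, by tissue, as log10(CPM + 1). Each point is a sample and each line a median. Itgb3 is highest in bone, and the other genes are highest in lung or liver.

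The neutrophil clusters were present in different shares. Cluster 11, led by Ltf, Ngp and Camp, genes of secondary granules made late in marrow maturation, held 36.8% of bone and 0.391% of lung neutrophils. Cluster 19, led by Ccrl2, Il1b and Acod1, held 43.4% in lung, 32.5% in liver, 8.56% in brain and 1.16% in bone. Between these clusters Itga4 had medians of 18.2 and 151 CPM, Selplg 122 and 921, Icam1 1.91 and 46.5 and Jaml 3.0 and 161. When each of the 4 neutrophil clusters was tested alone between tissues, 0 members passed in edgeR in each (0 of 10, 16, 16 and 12 tested, beside 0.0299% to 0.549% of genes). Cluster 11 had no lung sample with enough cells and 2 negative liver ones, so its test could not compare lung. Cluster 14 kept 3 negative lung samples and cluster 19 kept 3 negative bone samples. Markers of other cells moved too: the summed classical monocyte markers in these neutrophils were 3741 to 6421 CPM in lung and 1599 to 2622 in bone, with brain and liver at 2130 to 4533, and the granulocyte precursor ones 132 to 355 in lung, 785 to 1127 in bone and 142 to 1084 in brain and liver. How far these and the cluster shares set the differences of the class was not tested further. Of the related lists, 8 of 18 genes of integrin activation and linkage, 4 of 7 of selectin and ligand synthesis, 1 of 2 other integrin subunits and 1 of 5 of junction and transmigration differed. Itgb2l (range 2.92) and Parvg (1.93) were highest in bone, and the sialyltransferases St3gal6 (2.21) and St3gal4 (1.79), which build selectin ligands, in lung.

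NK cells differed between tissues in 1 of 20 members, beside 0.314% of 5091 genes. This was Itga1, the collagen-binding chain known from tissue-resident innate lymphoid cells, with biotin-negative levels of 122, 184, 372 and 31.9 CPM in liver, 26.5, 258, 112 and 43.9 in brain, 8.34, 52.7, 20.2 and 71.1 in bone and 4.24, 50.9, 36.7 and 19.6 in lung (adjusted p = 0.0329). The tissues overlapped, and leaving out any of 6 libraries (bone negative replicate 3, brain positive replicate 2 or 3, liver negative replicate 2 or 3, or lung negative replicate 1) gave 0, while leaving out lung negative replicate 2 gave 2. With the replicate number as a block 2 passed, Itga1 and Icam1.

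In the other classes 0 members differed between tissues in edgeR. Classical monocytes had 0 of 25 (5 at unadjusted p under 0.05, 1 in DESeq2, 0.743% of genes) and nonclassical monocytes 0 of 20 (8 at unadjusted p under 0.05, 1 in DESeq2, 1.74% of genes). With the replicate number as a block, 3 passed in classical monocytes (Itga6, Cd44 and Icam1) and 3 others in nonclassical monocytes (F11r, Itgb1 and Itga9). T cells had 0 of 18 (0.161% of genes), B cells 0 of 18 (0% of genes) and granulocyte precursors 0 of 25 (0% of genes, 2 at unadjusted p under 0.05 and 1 in DESeq2).

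The comparison of biotin-positive with biotin-negative cells asks what sets cells near the tumour cells apart from the rest of the tissue. Over all kept cells of a sample summed together, where fewer cells of a type and less RNA per cell cannot be told apart, lung had the most calls of the intracardiac tissues: 8 of 31 members passed, beside 18.3% of 12331 genes. Of these, 5 were higher in biotin-positive lung (beside 11.5% of genes) and 3 lower (beside 6.8%). By role, 2 alpha subunits were higher and 1 lower of 11, 1 beta subunit was higher and 2 lower of 5, and 2 of 7 junctional molecules were higher. Blocked by replicate number, these 8 and Itga2 and Itga6 passed.

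Itgax, the CD11c chain, measured 162, 233, 152 and 62.9 CPM in the 4 positive lung samples and 23.2, 21.6, 13.9 and 9.36 in the negative ones, without overlap (log2 fold change 2.87, SE 0.42, adjusted p = 0.00359). Cdh1, the epithelial cadherin, had 17.9, 24.9, 12.6 and 9.76 CPM against 1.38, 2.46, 2.5 and 2.44 (2.60, SE 0.32, adjusted p = 0.00223). Itga1 had 76.1, 31.5, 29.5 and 22 CPM against 10, 6.37, 12.2 and 9.49 (1.82, SE 0.35, adjusted p = 0.00997). For these genes every positive sample lay above every negative one.

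Itgb3, Itgb7 and Itga4 were lower in biotin-positive lung. Itgb3 had 1.97, 0.673, 0.588 and 2.72 CPM against 10, 3.23, 6.47 and 4.75 (log2 fold change -2.32, SE 0.53, adjusted p = 0.019). Itgb7, a partner of Itga4 on lymphocytes, had 35.5, 12.2, 24.3 and 43.1 CPM against 114, 61.2, 104 and 86 (-1.88, SE 0.38, adjusted p = 0.0117). Itga4 itself, outside the 6 largest, fell by 1.40 on the log2 scale (SE 0.24, adjusted p = 0.00684), from 195 to 340 CPM in negative to 78.7 to 145 in positive samples. Itgb5 was higher, with 57.1, 89.5, 44.4 and 45.6 CPM against 10.7, 24.8, 24.5 and 11.9 (1.43, SE 0.34, adjusted p = 0.0208), as was F11r (1.25, SE 0.35, adjusted p = 0.0391).

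The fractions held different cells. Alveolar macrophages made up 14.7% to 81% of positive and 0.0325% to 0.834% of negative lung cells, and T cells 0.295% to 6.93% and 7.19% to 29.5%. The summed alveolar macrophage markers were 6041 to 26962 CPM in positive and 1886 to 3581 in negative lung, the epithelial ones 95.3 to 392 and 9.43 to 17.1, the endothelial ones 79.8 to 760 and 6.20 to 46.1, the T cell ones 32.2 to 340 and 349 to 1919, and the megakaryocyte and platelet ones 233 to 2091 and 50.9 to 220.0. Their part in the member values was not tested. Of the related lists in lung, 2 genes of integrin activation and linkage were higher and 5 lower of 23, 6 of junction and transmigration were higher and 2 lower of 16, and 3 of 5 other ligands were higher. The largest changes were those of Ocln, a tight junction protein (4.88), Fblim1 (4.17), Vwf, made by endothelium and platelets (3.31), and Skap1, a T cell adaptor (-3.01).

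In brain, 1 of 30 members passed, beside 3.06% of 11064 genes (2.88% higher and 0.181% lower in positive cells). Itga6, the laminin-binding chain, measured 53.7, 33.3, 78.3 and 107 CPM in positive and 17.8, 13.6, 20.4 and 8.96 in negative brain, without overlap (log2 fold change 1.91, SE 0.36, adjusted p = 0.0306). Leaving out negative replicate 1, 3 or 4 or positive replicate 4 gave 0 members, and leaving out positive replicate 1 gave 4. With the replicate number as a block 6 passed: Itga6, Itga4, Vcam1, Itga9, Itgb7 and Itgb5. Without the low-count filter 4 passed, and DESeq2 gave more still. Microglia made up 3.26% to 45.4% of positive and 0.0977% to 0.665% of negative brain cells and macrophages 12.7% to 80.9% and 0.83% to 7.47%, the endothelial markers summed to 91.8 to 660 and 12.6 to 97.9 CPM, and the neutrophil ones to 22648 to 179292 and 120028 to 293175; their part in the change of Itga6 was not tested. Related genes that were higher were Fblim1 (3.73), Jam2 (3.72), Tln2 (3.57) and Tjp1 (3.55).

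In bone and liver 0 members passed in edgeR, of 30 and 31 tested, and 0% of 12533 and 11854 genes did. At unadjusted p under 0.05 there were 6 members in bone and 10 in liver, and DESeq2 gave 0 and 6. The median log2 fold change of the members tested was 0.20 in lung, 0.32 in liver, 0.19 in brain and -0.17 in bone, against -0.04, 0.02, -0.03 and 0.01 over all genes tested. Sele, Itgae and Madcam1 were too low to test in bone.

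**Figure D4:**
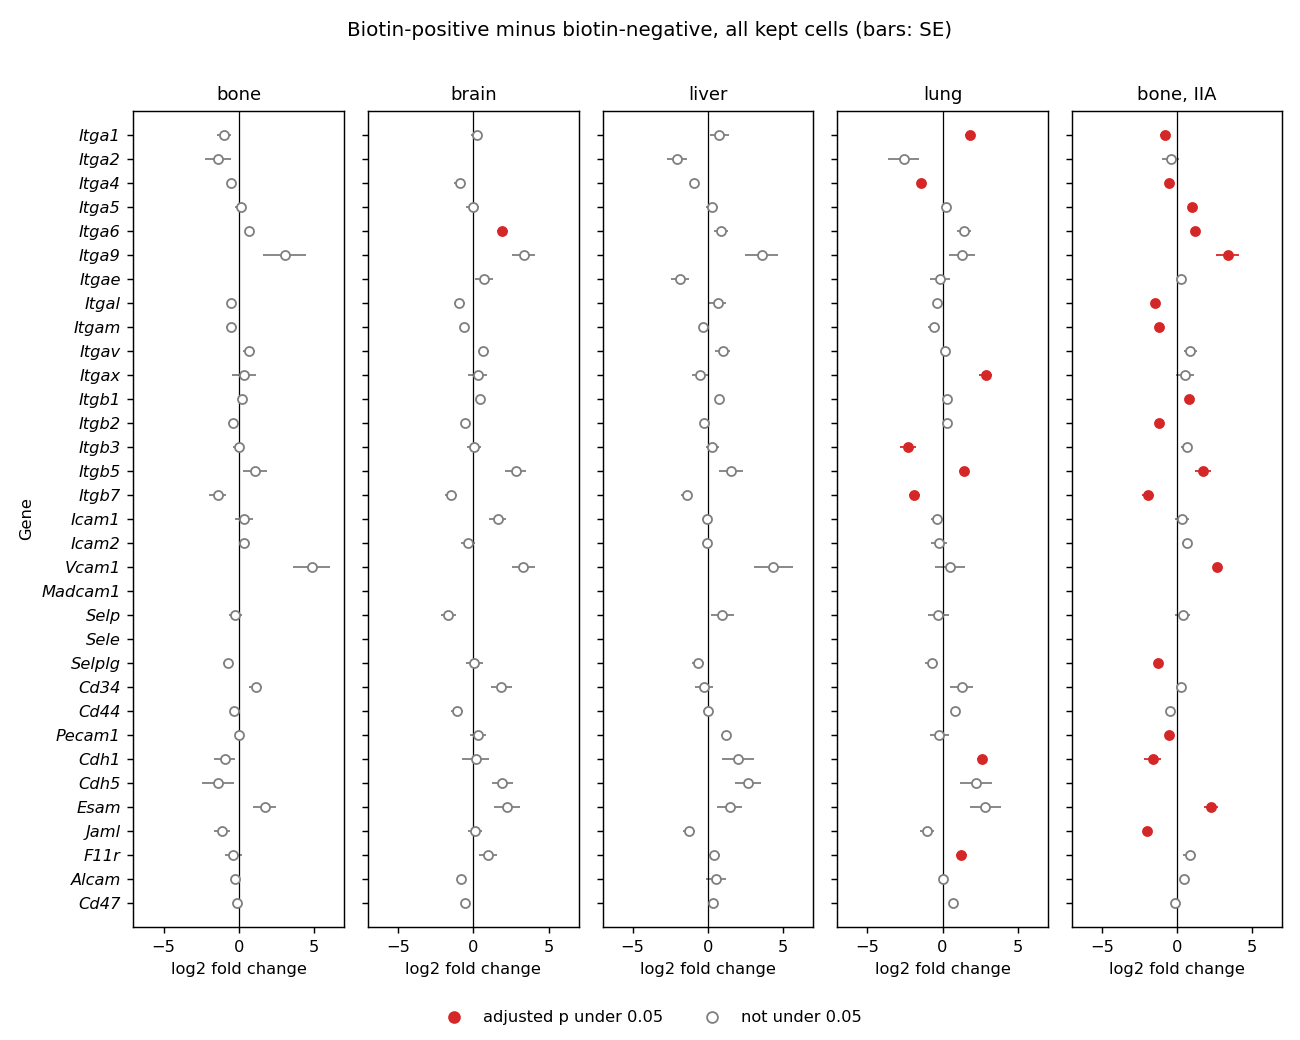
Log2 fold change of each tested member, biotin-positive over biotin-negative, with its standard error as a bar, over all kept cells of each intracardiac tissue and of IIA bone. Red points passed an adjusted p of 0.05: none in bone or liver, Itga6 in brain, 8 in lung and 17 in IIA bone.

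Within single intracardiac classes few members passed between the sorted fractions, and several classes had only 2 or 3 positive samples in a tissue. Averaged over the tissues that could be compared (bone, liver and lung for both monocyte classes, all 4 for the others), 0 members passed in edgeR in neutrophils (0 of 22, 0 at unadjusted p under 0.05), classical monocytes (0 of 25, 3), nonclassical monocytes (0 of 20, 0), T cells (0 of 18, 1) and B cells (0 of 18, 1), beside 0% of genes in each. With the replicate number as a block, Vcam1 passed in classical and Itga9 in nonclassical monocytes of bone. NK cells could be compared in brain only, where 0 of 20 passed (8 at unadjusted p under 0.05, Itga4 in DESeq2, 0.0196% of genes).

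Granulocyte precursors had 3 of 25 members lower in biotin-positive cells, beside 1.89% of 10708 genes lower, 0.99% higher and 2.88% changed. Itgb7 measured 148, 27.6, 26.5 and 30.6 CPM in negative and 24.8, 19.8, 4.96 and 10.2 in positive bone, 57.5, 67.6 and 45.5 against 5.1 and 8.44 in brain, and 129, 45.2, 66.8 and 62.9 against 74.3 and 9.62 in liver (log2 fold change -2.12, SE 0.47, adjusted p = 0.0228). Itga1 measured 79.7, 15.4, 18.2 and 17.9 against 13.7, 7.01, 5.04 and 7.84 CPM in bone, 31.4, 67.6 and 19.6 against 10.2 and 4.22 in brain, and 65.2, 75.3, 30.1 and 26.9 against 40 and 5.35 in liver (-1.78, SE 0.42, adjusted p = 0.0298). The fractions overlapped in liver for both, and did not overlap in bone or brain. Selplg, the selectin ligand, measured 201, 91.3, 92.7 and 84.9 against 62.6, 77.5, 49.1 and 49.3 CPM in bone, 107, 161 and 102 against 62.6 and 71.7 in brain, and 192, 148, 157 and 101 against 114 and 62 in liver (-0.89, SE 0.16, adjusted p = 0.0128).

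This result rested on few samples: it was 0 without brain positive replicate 1 or without liver positive replicate 3, 1 without brain positive replicate 4 and 5 without bone positive replicate 2. At the coarser Leiden resolution of 0.5 the class gave 0 members, and Itgb7 turned to a log2 fold change of 1.44 (edgeR adjusted p = 0.921). With the replicate number as a block 6 passed, Itga6, Vcam1, Selplg, Jaml, Itga1 and Itgb7. The precursor clusters shifted between the fractions of bone, with 1 cluster holding 43.0% of negative and 19.0% of positive cells and another 7.74% and 27.5%. The summed classical monocyte markers in these cells were 3082 to 9532 CPM in negative and 1782 to 3297 in positive bone. The conventional dendritic cell markers overlapped in bone (354 to 1195 and 184 to 435 CPM) and liver (521 to 1083 and 274 to 1834), and not in brain (541 to 877 and 135 to 228). The NK cell ones were 114 to 239 and 260.0 to 756 in bone and 138 to 237 and 344 to 479 in brain. Tested alone, each precursor cluster gave 0 members, but these tests covered bone only, since brain and liver had too few samples per fraction. They are therefore not the average over tissues given above. Each tissue of the whole class without the block also gave 0. With the block, bone alone gave 5: Itgb7, Itga1, Selplg, Vcam1 and Jaml. The part of the cluster shares and of these markers was not tested further.

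The comparison of resident macrophages between the fractions was added after seeing the data. Averaged over the tissues, it gave 0 of 26 members in edgeR (5 at unadjusted p under 0.05, Itgam and Jaml in DESeq2, 0% of genes). Within lung, 2 of 26 passed, beside 0.741% of genes. Itgam, the CD11b chain, had 179 and 179 CPM in the 2 negative samples with enough cells and 22.9, 20, 38.2 and 17.4 in the 4 positive ones (log2 fold change -2.74, SE 0.53, adjusted p = 0.00859). Cdh5 had 73 and 0 against 0.8, 2.54, 0.979 and 0 CPM (-5.07, SE 1.04, adjusted p = 0.0138), a change carried by 1 negative sample. Over all 4 negative samples, which held 59 such cells, 47.5% were of the main alveolar macrophage cluster, against 93.0% of the positive cells, and the part of this was not tested.

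Between the sorted fractions, the IIA injections gave more calls over all kept cells than any intracardiac tissue. Over all kept cells 17 of 30 members passed, 7 higher (beside 27% of genes) and 10 lower (beside 23.2%) in biotin-positive bone, where 50.2% of 12625 genes changed in all; the share of members is near this background. By role, 3 alpha subunits were higher and 4 lower of 11, 2 beta subunits were higher and 2 lower of 5, 1 of 3 immunoglobulin-family ligands was higher, 1 of 4 selectins and selectin ligands was lower, and 1 junctional molecule was higher and 3 lower of 6.

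Vcam1 over all IIA cells had a lowest, median and highest value of 106, 130.0 and 215 CPM in positive and 12.2, 18.3 and 28.9 in negative samples, without overlap (log2 fold change 2.62, SE 0.25, adjusted p = 8.84e-06). Itga9, a receptor chain for Vcam1 and tenascin, had 4.37, 17.9 and 89.3 CPM against 0.831, 2.70 and 5.05 (3.36, SE 0.76, adjusted p = 0.0032), with a small overlap. Esam had 1.58, 2.97 and 9.30 against 0.206, 0.588 and 1.00 CPM (2.24, SE 0.45, adjusted p = 0.00149). Itgb5 had 6.63, 22.9 and 92.0 against 7.43, 9.18 and 13.3 CPM (1.73, SE 0.55, adjusted p = 0.0193), with overlap at the low end.

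Jaml was lower, with 5.22, 9.60 and 10.8 CPM in positive and 13.3, 27.6 and 40.9 in negative samples (log2 fold change -2.01, SE 0.28, adjusted p = 0.000134), as was Itgb7 with 4.98, 12.5 and 36.4 against 43.5, 54.2 and 75.9 CPM (-1.93, SE 0.42, adjusted p = 0.00241). Neither overlapped. Also lower were Cdh1 (-1.63), Itgal (-1.44), Selplg (-1.28), Itgam (-1.21), Itgb2 (-1.19), Itga1 (-0.81), Itga4 (-0.53) and Pecam1 (-0.53), and also higher were Itga6 (1.18), Itga5 (1.00) and Itgb1 (0.80). With the injection as a block, Itgb5 no longer passed in edgeR (1.20, adjusted p = 0.057), and Cd44 and Alcam did.

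Positive IIA samples held 20.8% to 35.9% neutrophils against 43.6% to 61.3%, 4.02% to 51.8% macrophages against 0.521% to 4.42%, and 3.30% to 48.6% granulocyte precursors against 0.814% to 2.72%. Their summed stromal markers were 35.3 to 3477 CPM against 43.3 to 247, and the endothelial ones 36.5 to 65.9 against 16.1 to 22.6. The part of these shares in the values over all cells was not tested. The related lists had 4 genes of integrin activation and linkage higher and 13 lower of 26, 6 of 10 of selectin and ligand synthesis lower, and 5 of 11 other ligands higher, led by Vwf (3.75), Tnc (3.55), Fblim1 (3.46) and Skap1 (-3.39).

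Macrophages of IIA bone, compared within the class, had 11 of 21 members changed, beside 25.5% of 5165 genes, with 6 higher (12.5% of genes) and 5 lower (13% of genes). Vcam1 went from 0, 1.92, 0, 0, 6.95 and 4.05 CPM in the negative samples to 91.4, 133, 389, 1683, 474 and 1373 in the positive ones (log2 fold change 7.66, SE 0.95, adjusted p = 3.5e-05). Every positive sample was above every negative one. Itga9 had a lowest, median and highest level of 89.1, 160 and 323 CPM in positive and 0, 10.2 and 69.1 in negative macrophages (3.55, SE 0.45, adjusted p = 4.2e-05), again without overlap.

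Itgb7 had 0, 44.8 and 62.1 CPM in positive and 144, 196 and 305.8 in negative IIA macrophages (log2 fold change -2.24, SE 0.27, adjusted p = 2.24e-05), and Itga1 0, 22.0 and 38.3 against 52.5, 79.1 and 162 (-2.01, SE 0.36, adjusted p = 0.000619). Both were lower in every positive sample than in any negative one. Itgb5 had 112, 124 and 359 CPM against 14.0, 41.7 and 93.2 (1.72, SE 0.41, adjusted p = 0.00547) and did not overlap, while Itga6 had 0, 43.8 and 68.0 against 0, 13.7 and 40.5 (1.44, SE 0.38, adjusted p = 0.0104) and did. Itgb1 (1.18) and Itgav (1.22) were also higher, and Cd44 (-1.25), Itgal (-1.38) and Selplg (-0.83) lower.

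**Figure D5:**
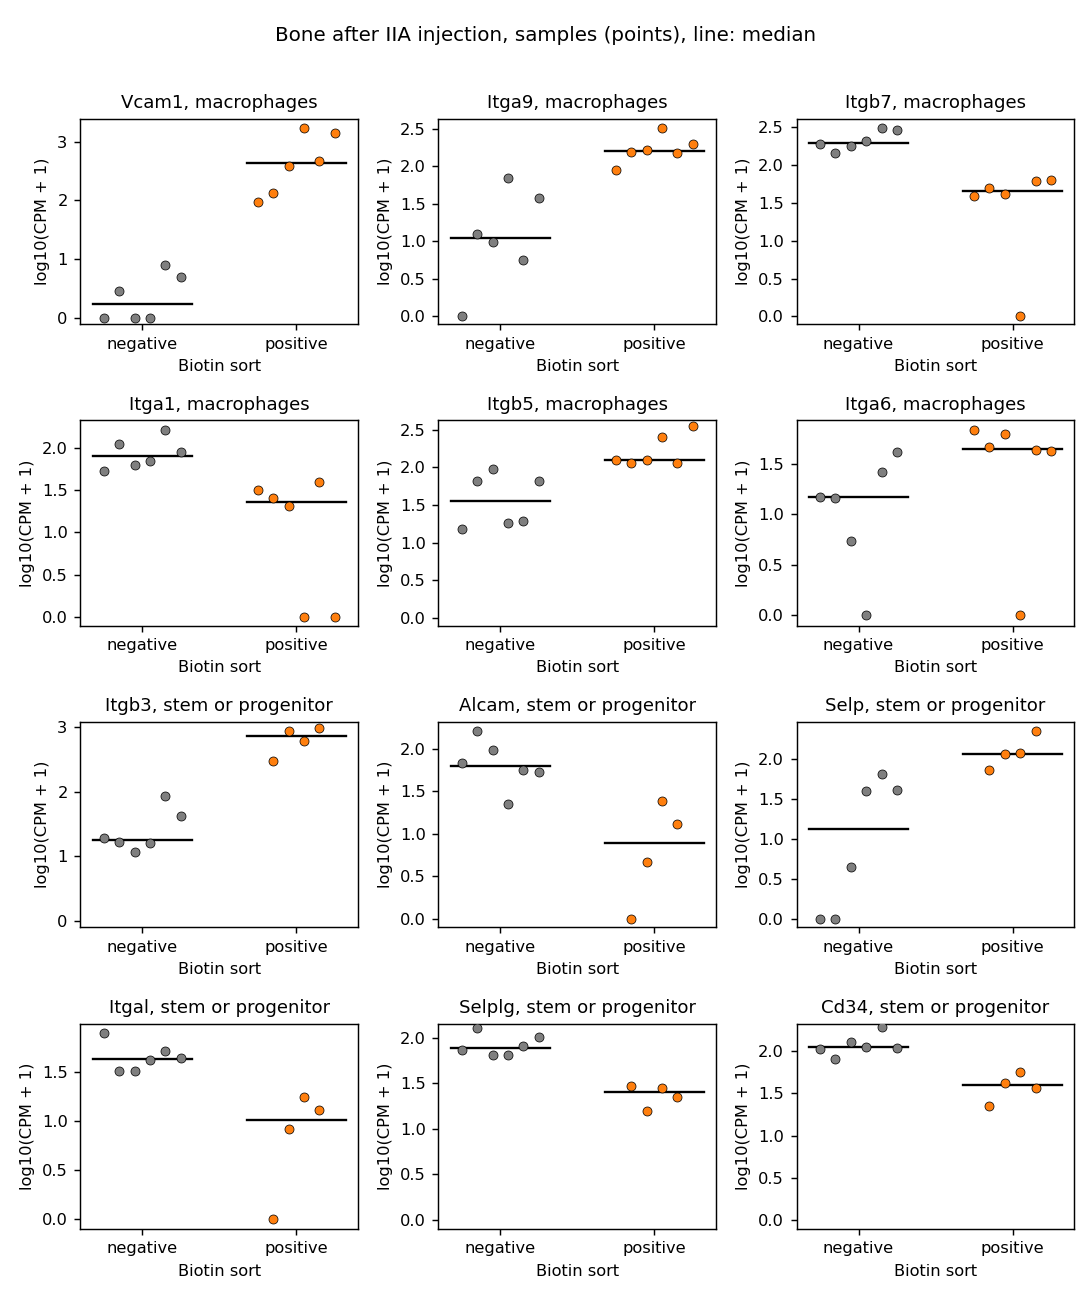
Level of 6 members in IIA bone macrophages (Vcam1, Itga9, Itgb7, Itga1, Itgb5 and Itga6) and of 6 in stem or progenitor cells (Itgb3, Alcam, Selp, Itgal, Selplg and Cd34), in biotin-negative and biotin-positive samples, as log10(CPM + 1). Each point is a sample and each line a median. The fractions do not overlap for Vcam1, Itga9, Itgb7, Itga1 and Itgb5 in macrophages.

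Of the macrophage clusters, 1 led by Vcam1, Cd5l and Itgad was found in positive samples alone (80 cells, 10.1% of the positive macrophages) and had medians of 4899 CPM of Vcam1, 414 of Itga9 and 0 of Itgb7 over 4 samples. The main cluster, with Pf4, Hmox1 and C1qb among its leading genes, had medians of 104, 146 and 50.1 CPM in the 5 positive samples with enough of its cells, and 0.961, 10.2 and 196 in the 6 negative ones. Tested alone, this main cluster gave 12 of 22 members (24.9% of genes), among them all 11. The summed classical monocyte markers in positive macrophages were 3478 to 5669 CPM against 8013 to 10999, the neutrophil ones 2729 to 35543 against 6528 to 62735, the megakaryocyte and platelet ones 476 to 7701 against 8.10 to 365, and the endothelial ones 0 to 26.0 against 4.44 to 34.5. The part of these lists in the member values was not tested. Related genes were Fblim1 (4.96), Spp1, a ligand of Itgav and Itga4 integrins (2.22), and St3gal4 (-1.45).

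Neutrophils of IIA bone had 4 of 19 members higher in biotin-positive cells, beside 9.92% of 8037 genes higher and 13.5% changed. Alcam, an adhesion molecule that binds itself and Cd6, had a lowest, median and highest level of 121, 378 and 564 CPM in positive and 70.4, 107 and 197 in negative neutrophils (log2 fold change 1.60, SE 0.32, adjusted p = 0.00368). Cd44 had 451, 599 and 690 against 361, 387 and 449 CPM (0.48, SE 0.11, adjusted p = 0.00849), without overlap. Itgb1 had 17.5, 31.9 and 44.1 against 15.6, 18.8 and 23.6 CPM (0.67, SE 0.20, adjusted p = 0.0316), and Vcam1 6.61, 14.8 and 16.6 against 4.86, 6.19 and 11.1 (0.87, SE 0.28, adjusted p = 0.0453). Alcam, Itgb1 and Vcam1 overlapped between the fractions. Leaving out negative replicate 2, 4 or 5 or positive replicate 2 or 5 gave 2, as did leaving out the highest Scrublet scores. With the injection as a block Jaml passed as well. Cluster 6 of the IIA cells, led by Acod1, Hcar2 and G0s2, held 49.5% of positive and 5.20% of negative neutrophils. Tested alone, each of the 6 neutrophil clusters gave 0 members in edgeR (0 of 8 to 11 tested, 0 to 2 at unadjusted p under 0.05, beside 0% to 0.143% of genes), and in single clusters the log2 fold change turned negative for Alcam (-0.73 in cluster 4 and -0.18 in cluster 8), Itgb1 (-0.32 in cluster 3) and Cd44 (-0.23 in cluster 3 and -0.32 in cluster 5), by values that did not pass. In the class the macrophage markers summed to 140 to 324 CPM in positive and 125 to 249.8 in negative samples. The part of the cluster shares and of markers of other cells, granulocyte precursors included, was not tested further. Of the related genes, Spp1 (2.82), Cyth1 (1.53) and Ctnnb1 (0.46) were higher and Parvg (-0.47) lower.

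Granulocyte precursors of IIA bone had 4 of 15 members changed, beside 10% of 6915 genes. Itgb2, the leukocyte beta chain, had a lowest, median and highest level of 57.9, 75.0 and 101 CPM in positive and 83.8, 124 and 156 in negative precursors (log2 fold change -0.78, SE 0.15, adjusted p = 0.00111). Itgal had 35.0, 46.6 and 63.8 against 49.1, 66.6 and 98.3 CPM (-0.69, SE 0.15, adjusted p = 0.00409) and Itgam 92.1, 127 and 152 against 113, 170.0 and 193 (-0.55, SE 0.14, adjusted p = 0.00881). Itga6 was higher, at 41.5, 51.4 and 63.8 against 24.1, 31.7 and 41.8 CPM (0.53, SE 0.16, adjusted p = 0.0351). The fractions overlapped for each of these genes, and with the injection as a block Itga6 no longer passed in edgeR (0.52, adjusted p = 0.0514). At Leiden resolution 0.5 the class gave 8 members, and Itgam turned to 0.11 (edgeR adjusted p = 0.727). The summed neutrophil markers in these cells were 24081 to 44983 CPM in positive and 58468 to 122504 in negative samples, and their part was not tested. Related genes that were lower were Itgb2l (-1.33), Sirpa, the receptor of Cd47 (-0.66), and Zyx (-0.63).

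Cells of the IIA bone cluster named stem or progenitor numbered 315 in the 6 negative and 83 in the 6 positive samples, of which 4 (replicates 3 to 6) had enough cells to be tested. The name is that of the whole cluster, and its positive cells carried high megakaryocyte and platelet markers, given below. The cluster had 11 of 16 members changed, beside 21% of 6089 genes, with 4 higher (9.44% of genes) and 7 lower (11.5% of genes). Itgb3, the beta chain of the platelet fibrinogen receptor, measured 300.0, 888, 615 and 967 CPM in positive and 18.2, 15.9, 10.6, 15.1, 83.8 and 40.3 in negative samples, far apart (log2 fold change 4.37, SE 0.39, adjusted p = 3.79e-07). Selp, the selectin of platelet granules, measured 71.4, 114, 118 and 221 CPM against a lowest, median and highest of 0, 21.2 and 63.5 (2.11, SE 0.43, adjusted p = 0.0017).

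Lower in these positive cells was Alcam, with 0, 3.69, 23.5 and 11.9 CPM against 21.6, 61.3 and 159 (log2 fold change -2.19, SE 0.52, adjusted p = 0.0052). Itgal had 0, 7.37, 16.8 and 11.9 CPM against 31.8, 41.9 and 78.9 (-1.90, SE 0.39, adjusted p = 0.00169), Selplg 28.6, 14.7, 26.9 and 21.4 against 62.5, 75.8 and 127 (-1.81, SE 0.27, adjusted p = 0.000111) and Cd34, a progenitor marker, 21.4, 40.5, 55.5 and 35.6 against 79.5, 109 and 188 (-1.51, SE 0.26, adjusted p = 0.000375). Itgal, Selplg and Cd34 did not overlap between the fractions, and Alcam did. Itga6 (1.46) and Itgb1 (0.94) were also higher, and Itga4 (-1.38), Pecam1 (-1.04) and Cd44 (-0.67) lower. With the injection as a block Cd44 no longer passed in edgeR (-0.72, adjusted p = 0.0684).

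The class is 1 cluster, and its fractions differed in other markers too. The megakaryocyte and platelet list summed to 11107 to 27558 CPM in positive and 110 to 658 in negative samples, and the erythroid list to 1611 to 12935 and 866 to 1977. The basophil or mast cell list summed to 55.3 to 186 CPM in positive and 261 to 607 in negative samples. The part of these lists in the member values was not tested. Vwf (4.05), Parvb (3.90), Itga2b, the platelet partner chain of Itgb3 (2.91), and Rap1b (2.44) were higher, and 10 genes of integrin activation and linkage were higher and 2 lower of 17.

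In the other IIA classes 0 members passed in edgeR: 0 of 17 in B cells (4 at unadjusted p under 0.05, 0% of genes), 0 of 20 in classical monocytes (2, 0.071% of genes), 0 of 12 in stromal cells (5, 2.14% of genes) and 0 of 16 in nonclassical monocytes (5, 1.33% of genes). Stromal cells gave 3 in DESeq2, 2 without negative replicate 2 and 1 without positive replicate 1, 2 or 5. Nonclassical monocytes gave 1 without positive replicate 6 and 1, Itga9, with the injection as a block, and classical monocytes 1 without negative replicate 6.

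The levels of members across the IIA classes were as follows. Basophils or mast cells had 373 CPM of Cdh1 (276 to 415) and 224 of Pecam1 (199 to 299) in 4 samples, against 56.4 CPM of Cdh1 in plasmacytoid dendritic cells. Granulocyte precursors had 160 CPM of Vcam1 (107 to 222) and stromal cells 133 (71.7 to 249.7). NK cells had the highest Itga4 with 578 CPM (305.4 to 886) and Itga2 with 165 (87.8 to 407). Neutrophils had the highest Itgam with 712 CPM (636 to 763), and macrophages reached the low end of that range (68.0 to 665). These are descriptions without a test.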

How the data were processed

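For each of 33 libraries the authors deposited a matrix of UMI counts, genes by barcodes. Per the submitters' processing notes, reads were aligned to mm10 with Cell Ranger; per the file headers, cellranger 6.1.2 wrote the 32 intracardiac matrices and 7.1.0 the pooled IIA matrix. Whether intronic reads were counted is not given in the sources used here. Sequences came from RefSeq and gene positions from GENCODE vM21.

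Of 57065 intracardiac barcodes, 55366 with at least 500 UMIs, 200 genes and at most 15% mitochondrial UMIs were kept. Of 26666 IIA barcodes, 22685 were assigned to the hashtag that had at least 10 counts and 3 times the next, and 22362 were kept. The deposited hashtag list and the feature table name the hashtags differently; they were matched by number, and every IIA comparison of the fractions rests on that match. No doublets were removed; leaving out the highest 5% of Scrublet scores was an alternative. Cells were clustered in scanpy 1.11.5 (2000 variable genes without the members, 30 principal components, 15 neighbours, Leiden resolution 1.0) and named from 341 marker genes in 30 lists.

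Counts were summed per sample and class with at least 10 cells. They were tested with edgeR 4.0.16 (R 4.3.3; quasi-likelihood, TMM, filterByExpr), with Benjamini-Hochberg adjustment over all genes tested and a threshold of 0.05. Fits held the samples of the class, tissue by sort, or all cells of 1 tissue. DESeq2 1.42.0 was an alternative, as were RLE size factors, no low-count filter, at most 10% mitochondrial UMIs, at least 20 cells, a hashtag ratio of 5, Leiden resolution 0.5, a replicate block, leaving out each sample, and single clusters (added after seeing the data). Resident macrophages by sort were also added after seeing the data. All members are accounted for; those with an adjusted p under 0.05 are named, with values per sample for up to 6 of the largest changes and for up to 4 related genes. A related gene that met this rule is not reported here. Members and lists were chosen with earlier results of these data known.

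Samples with the same replicate number deviated together in bone (correlations 0.448 to 0.738), brain (0.213 to 0.629) and liver (0.256 to 0.501), where the numbers were taken as pairs, and in 3 of 4 pairs in lung (-0.0916 to 0.482). In IIA the number is the injection, per the labels, and pairs the samples by that label (correlations 0.0778 to 0.562). Samples with different numbers also correlated, up to 0.507 in IIA (positive 3 with negative 2) and 0.427 in brain (positive 1 with negative 4). Because samples with the same number shared 0 barcodes, the blocked values are given for lung too. On simulated counts in the lung comparison, 70.8% of 96 genes changed by log2 2 and 4.12% of 97 changed by log2 1 were called; in the IIA macrophage comparison the shares were 98.8% of 85 and 72% of 93. Tables were not corrected for free RNA.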

Additional observations from a re-analysis of the deposited data

Results flagged for a closer look

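In 9 of 121 groups of 4 to 10 samples, 1 sample lay apart from the others by Dixon's test at the 95% level, and chance flags about 1 in 20 groups. Lung negative replicate 1 had 1.383 CPM of Cdh1 over all cells (nearest sample 2.439). In neutrophils, liver negative replicate 2 had 43.55 CPM of Icam1 (nearest 16.67) and brain negative replicate 2 had 6.304 CPM of Itgax (nearest 1.121). In granulocyte precursors, bone negative replicate 1 was the highest for all 3 members that differed between the fractions, with 148.0 CPM of Itgb7 (nearest 30.58), 79.66 of Itga1 (nearest 18.21) and 200.7 of Selplg (nearest 92.68). In resident macrophages, bone positive replicate 2 had 12450.0 CPM of Vcam1 (nearest 3733) and lung positive replicate 1 had 1.92 CPM of Cd34 (nearest 0.2116). Over all IIA cells, positive replicate 4 had 9.303 CPM of Esam (nearest 3.533).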

How the results depend on the processing

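Counts are of members with an adjusted p under 0.05; the causes of the shifts were not tested. Over all brain cells, 1 became 4 without the low-count filter, 6 with the replicate block, 7 in DESeq2 and 0 to 4 leaving out 1 sample. DESeq2 gave 6 in liver and 13 in lung, and leaving out a sample gave 6 to 11 in lung. Neutrophils between tissues gave 8 at Leiden resolution 0.5, 0 in clusters 10, 11 (without lung), 14 and 19 alone and 8 to 13 leaving out a sample.

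Granulocyte precursors by sort gave 6 without the filter, 6 with the replicate block, 5 in DESeq2 and 5 with at least 20 cells. They gave 0 at Leiden resolution 0.5, 0 in clusters 7, 13 and 20 alone (bone only) and 0 to 5 leaving out a sample. Between tissues, the precursors gave 1 without the filter and 1 in DESeq2. Classical monocytes gave 1 without the filter, 3 with the block, 1 in DESeq2, 1 at Leiden resolution 0.5 and 0 to 1 leaving out a sample. Nonclassical monocytes gave 5 without the filter, 3 with the block, 1 in DESeq2 and 0 to 3 leaving out a sample. T cells and B cells each gave 2 without the filter. NK cells gave 4 without the filter, 2 with the block, 0 in DESeq2, with at least 20 cells and at Leiden resolution 0.5, and 0 to 2 leaving out a sample; by sort they gave 2 without the filter and 1 in DESeq2.

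Resident macrophages by sort gave 2 in DESeq2, 1 without the highest Scrublet scores and 0 to 1 leaving out a sample. Between tissues they gave 8 with the macrophage clusters alone and 19 to 22 leaving out a sample.

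In IIA bone, all cells gave 14 to 18 leaving out a sample, and macrophages 11 to 13. B cells and classical monocytes each gave 1 without the filter, and classical monocytes 0 to 1 leaving out a sample. Stromal cells gave 8 without the filter, 3 in DESeq2, 1 without the highest Scrublet scores and 0 to 2 leaving out a sample. Granulocyte precursors gave 8 at Leiden resolution 0.5 and 3 to 4 leaving out a sample. Neutrophils gave 2 without the highest Scrublet scores, 0 in clusters 3, 4, 5, 6, 7 and 8 alone and 2 to 4 leaving out a sample. Nonclassical monocytes gave 1 with RLE factors, without the filter, with the block, without the highest Scrublet scores and with a hashtag ratio of 5, and 0 to 1 leaving out a sample. Stem or progenitor cells gave 17 without the filter and 9 to 12 leaving out a sample, and no cluster had that name at Leiden resolution 0.5. The counts of the other classes and of all bone and liver cells stayed at 0 leaving out a sample. For comparisons of a class within a single tissue, resident macrophages of lung included, the counts leaving out a sample were not compiled.

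Directions turned for Itgb7 in intracardiac precursors (1.44) and Itgam in IIA precursors (0.11) at Leiden resolution 0.5, and, in single IIA neutrophil clusters, for Alcam (-0.73 in cluster 4, -0.18 in cluster 8), Itgb1 (-0.32 in cluster 3) and Cd44 (-0.23 in cluster 3, -0.32 in cluster 5), none past the threshold. The replicate block gave 10 in lung and 18 over all IIA cells, and the calls it changed stand beside the results; it changed no other. Madcam1 was too low to test in any comparison, and which other members could be tested differed between comparisons.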
